A study of Mus musculus with 8 samples.

Results

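The genes described here are 34 genes of glucose breakdown and of the response to low oxygen in mouse melanoma cells, taken by name from a deposited table of 45556 named genes. All 34 were found, and all 34 were among the 13500 genes that passed the filter on low counts. By role they are 15 glycolytic enzymes, 4 enzymes that decide between lactate and mitochondrial pyruvate, 2 enzymes that set fructose 2,6-bisphosphate, 3 genes of oxygen sensing and 10 further targets of the hypoxia-inducible factors (HIF). The cells were B16F10, a pigmented mouse melanoma line, in which pLKO, an empty lentiviral hairpin vector, served as the control for shDRG2, a hairpin that targets the GTP-binding protein gene Drg2. Each line was left untreated or given recombinant mouse interferon-gamma (IFN-γ), 5 ng/ml, for 24 hours. The 4 groups hold 2 RNA-seq libraries each: untreated pLKO, IFN-γ-treated pLKO, untreated shDRG2 and IFN-γ-treated shDRG2. Every group shares the vector backbone, each line is represented once and the knockdown by 1 hairpin, so effects of this hairpin, of the derived line and of lower Drg2 cannot be told apart. The labels do not say that replicates were separate cultures, and all p-values measure only the spread between these libraries.

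Glycolysis converts glucose to pyruvate in the cytosol, and tumour cells often pass much of that pyruvate on to lactate even when oxygen is present. HIF-1α, the product of Hif1a, is hydroxylated on prolines and destroyed while oxygen is available, and when oxygen falls it pairs with its partner ARNT and binds hypoxia response elements near glycolytic, vascular and mitophagy genes. Its mRNA need not move for the protein to change, so the targets are commonly read in its place.

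Library totals ran from 25422758 to 36654519 estimated counts. Levels are given in CPM, counts scaled to a common library size, with that size adjusted by TMM (the trimmed mean of M values). Drg2 stood between 64.3 and 76.3 CPM in the pLKO libraries and between 6.46 and 9.34 CPM in the shDRG2 libraries. Irf1, Gbp2 and Cd274, all induced by IFN-γ, rose with log2 fold changes between 4.69 for Cd274 in pLKO and 10.05 for Gbp2 in pLKO cells. The 8 melanocyte-lineage markers were all measured and summed to between 9701 and 15213 CPM. None of the 6 immune markers passed the filter, 4 of them were at 0 in every library, and their sum was at most 0.313 CPM. The sums were at most 0.622 CPM for the 4 endothelial and 0.0666 CPM for the 5 epithelial markers. The 5 fibroblast markers summed to 15.8 to 19.5 CPM without and 4.16 to 5.74 CPM with IFN-γ, almost all of it Col1a2. Of the 8 melanocyte markers 5 fell with IFN-γ in pLKO and 7 in shDRG2 cells at an adjusted p under 0.05 in the edgeR test given below. Over all genes 12.7% and 15.2% fell by that test. What these shifts contribute to the results below was not tested, and in bulk RNA fewer cells of a state and less RNA per cell cannot be told apart.

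Levels between genes were compared only per length, as CPM per kilobase of annotated exon. On that scale the enzymes that follow the splitting of the sugar were the most abundant: Gapdh, which oxidises glyceraldehyde 3-phosphate, averaged 976 CPM per kilobase over the 8 libraries. Pkm, pyruvate kinase, followed at 593, Pgk1, phosphoglycerate kinase, at 473, and Tpi1, triose phosphate isomerase, at 422. Eno1 (enolase) stood at 394, Aldoa (aldolase) at 376, Pgam1 (phosphoglycerate mutase) at 368 and Ldha (lactate dehydrogenase A) at 300.3 CPM per kilobase. Ldhb and Gpi1, glucose phosphate isomerase, were at 162 and 102, and Hk2, a hexokinase, was at 51.2. Hif1a itself averaged 43.5 and Bnip3, a mitophagy receptor, 31.5 CPM per kilobase. At the other end were Aldoc at 0.288, Adm, which encodes adrenomedullin, at 0.169, and Egln3, an oxygen-sensing hydroxylase, at 0.109 CPM per kilobase. The length used was every annotated exon base of a gene, which exceeds its longest coding transcript by unequal factors. It was 5379 against 2027 bases for Eno1, 4133 against 1420 for Gapdh and 2244 against 1825 for Pgk1. The order among the abundant enzymes therefore depends on the length used. The 15 glycolytic enzymes together took between 1.38% and 1.78% of a library's counts. That share was highest in untreated shDRG2 replicate 1 (1.78%) and IFN-γ-treated shDRG2 replicate 1 (1.64%), and the other 6 libraries lay between 1.38% and 1.53%.

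With IFN-γ a few of the 34 genes were called, in both directions, and the set moved about as much as genes in general. The median size of the log2 fold change was 0.21 in pLKO and 0.25 in shDRG2 cells, against 0.23 and 0.25 over all genes. The median standard error (SE) of the 34 genes was larger, 0.15 against 0.11 over all genes in each line. A gene was called when its Benjamini-Hochberg adjusted p in the edgeR quasi-likelihood test, adjusted over all 13500 genes, was under 0.05. In pLKO cells 5 of 34 genes were called, 14.7%, against 28.1% of all genes tested. The kinase gene Pdk3, the demethylase gene Kdm3a and the prolyl hydroxylase gene P4ha1 rose (15.4% of all genes did), and Hk1 and Egln1 fell (12.7% did). In shDRG2 cells 9 of 34 were called, 26.5%, against 31.4% of all genes. There 5 rose (16.2% of all genes), namely Pdk3, Eno2, P4ha1, Kdm3a and Pfkp, and 4 fell (15.2%), namely P4ha2, Egln1, Ndrg1 and Hk1. No test compared the members' shares with those of all genes, and in each line the members' share was above that of all genes under some alternatives given in the closing section. Some genes not called in pLKO cells, named there, were called with a block by replicate number, which the labels do not state to be a pairing. The median log2 fold change of the 34 genes was -0.04 in each line, and that of all genes 0.01 in pLKO and 0.00 in shDRG2 cells. In pLKO cells both treated libraries lay above both untreated ones for 10 of 34 genes and below for 12. Over all genes these shares were 32.2% and 30.1%. In shDRG2 cells it was 9 and 6 of 34, against 33.0% and 32.2%. Groups of 2 libraries that lie apart, as given below for single genes, are thus common among all genes.

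**Figure D1:**
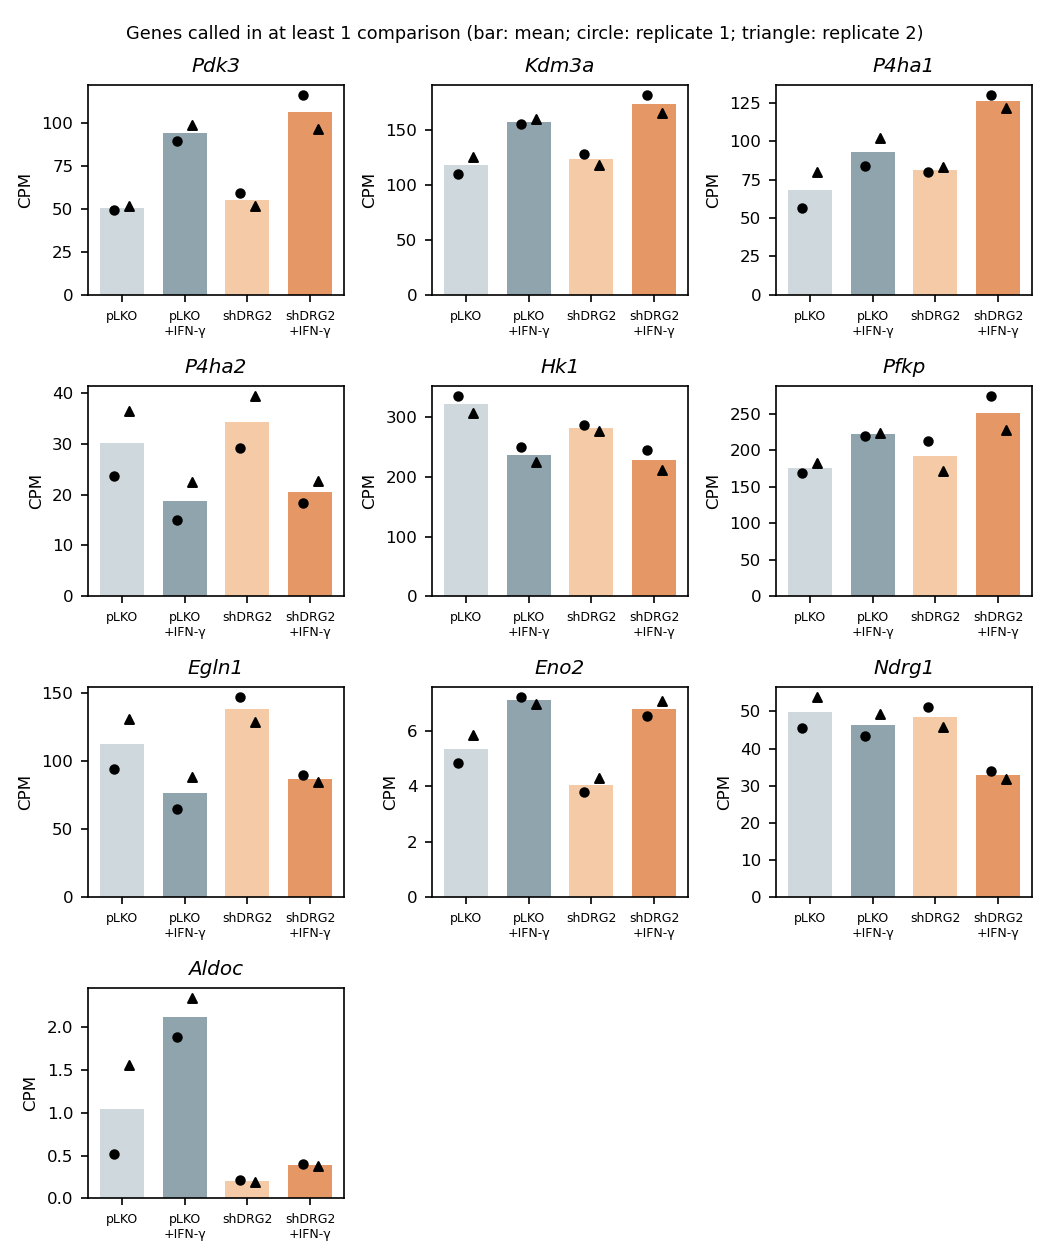
Levels in CPM (vertical axes, starting at 0) of the 10 genes called in at least 1 comparison, by group on the horizontal axis. Bars are means of 2 libraries, circles replicate 1 and triangles replicate 2. Pdk3 is higher in all 4 treated libraries than in all 4 untreated ones, P4ha2 is lower in treated cells of each line, and Aldoc lies under 0.5 CPM in all 4 shDRG2 libraries.

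Among the hexokinases, which trap glucose in the cell as glucose 6-phosphate, Hk1 fell with IFN-γ. Hk1 measured 337 and 307 CPM in untreated pLKO, 250.4 and 225 CPM in treated pLKO, 288 and 277 CPM in untreated shDRG2 and 246 and 211 CPM in treated shDRG2. Both treated libraries lay below both untreated ones in each line. The log2 fold change was -0.44 (SE 0.10, adjusted p = 0.0066) in pLKO and -0.31 (SE 0.10, adjusted p = 0.033) in shDRG2 cells. The pLKO call was lost without untreated pLKO replicate 1 or treated pLKO replicate 2 (adjusted p up to 0.057). The shDRG2 call was lost without either untreated shDRG2 library or without treated shDRG2 replicate 2 (adjusted p up to 0.25). Hk2, the isoform typical of tumour cells, ranged from 213 to 376 CPM, with log2 fold changes of 0.18 (SE 0.16) and 0.26 (SE 0.16) that were not called.

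Phosphofructokinase commits glucose to breakdown, and its platelet-type subunit Pfkp was the member of that step that rose. Its level was 169 and 183 CPM in untreated pLKO and 219 and 224 CPM in treated pLKO. In shDRG2 cells it was 212 and 171 CPM untreated and 275 and 228 CPM treated. The groups did not overlap in either line, although untreated shDRG2 replicate 1 reached nearly the level of the treated pLKO libraries. The rise in shDRG2 cells was 0.39 on the log2 scale (SE 0.12, adjusted p = 0.027), and that in pLKO cells was 0.34 (SE 0.12, adjusted p = 0.055) and was not called. The shDRG2 call was lost without untreated shDRG2 replicate 2 or treated shDRG2 replicate 1 (adjusted p up to 0.23). The liver-type Pfkl (95.9 to 181 CPM) and the muscle-type Pfkm (44.8 to 60.6 CPM) were not called, with log2 changes between -0.10 and 0.16.

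Enolase turns 2-phosphoglycerate into phosphoenolpyruvate. Its neuronal form Eno2 was at 4.86 and 5.85 CPM in untreated and 7.23 and 6.97 CPM in treated pLKO, and at 3.79 and 4.30 CPM in untreated and 6.53 and 7.08 CPM in treated shDRG2. All 4 treated libraries were above all 4 untreated ones. The log2 fold change was 0.75 (SE 0.16, adjusted p = 0.0048) in shDRG2 cells and 0.41 (SE 0.16, adjusted p = 0.078) in pLKO cells, where it was not called. The major form Eno1 went the other way, from 2319.8 and 2339 CPM to 1956 and 1683 CPM in pLKO and from 2673 and 2102 CPM to 2117 and 1775 CPM in shDRG2. Its treated and untreated groups were apart in pLKO and overlapped in shDRG2. Eno1 had log2 changes of -0.36 (SE 0.13, adjusted p = 0.067) and -0.30 (SE 0.13, adjusted p = 0.11) and was not called in either line. In pLKO cells Eno1 passed the threshold under some alternatives, among them upper-quartile scaling (adjusted p = 0.031), DESeq2 (adjusted p = 0.014) and a fit of the 4 pLKO libraries (adjusted p = 0.040), while without treated pLKO replicate 2 its adjusted p was 0.31.

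The other 8 glycolytic enzymes were not called with IFN-γ. Aldoc, taken up below, had changes of 1.03 (SE 0.42, adjusted p = 0.10) and 0.91 (SE 0.64, adjusted p = 0.33). The log2 fold changes of Gpi1, Aldoa, Tpi1, Gapdh, Pgk1, Pgam1 and Pkm lay between -0.27 for Gpi1 in shDRG2 and 0.17 for Pkm in pLKO cells. Gapdh, widely used as a reference gene, had a change of -0.06 (SE 0.12) in each line. Its 95% interval in pLKO cells ran from -0.34 to 0.21.

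Among the genes called with IFN-γ, the largest fold change was at the gate between glycolysis and the mitochondria. Pdk3 is one of the kinases that phosphorylate and switch off pyruvate dehydrogenase. Its level was 49.7 and 51.6 CPM in untreated and 89.7 and 98.7 CPM in treated pLKO, and 59.1 and 51.7 CPM in untreated and 117 and 96.3 CPM in treated shDRG2. Every treated library was above every untreated one, by a wide gap. The log2 fold change of Pdk3 was 0.90 in pLKO, or 1.86-fold (SE 0.11, adjusted p = 0.00014). In shDRG2 cells it was 0.94, or 1.92-fold (SE 0.11, adjusted p = 8.4e-05). Both calls were kept under all 16 alternatives run. Pdk1, the isoform best known as a HIF target, ranged from 27.5 to 58.1 CPM and had log2 changes of -0.09 (SE 0.26) and -0.21 (SE 0.26), neither called. Ldha, which makes lactate, and Ldhb, which favours the reverse step, had changes between -0.23 and -0.12 and were not called.

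Pfkfb3 and Pfkfb4 make and break fructose 2,6-bisphosphate, the allosteric activator of phosphofructokinase. Pfkfb3 lay between 22.4 and 26.1 CPM in all 8 libraries, with log2 changes of -0.09 (SE 0.09) and -0.03 (SE 0.09). Pfkfb4 lay between 5.13 and 7.96 CPM, with changes of 0.22 (SE 0.16) and 0.39 (SE 0.15, adjusted p = 0.083). Neither gene was called.

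Among the oxygen-sensing genes the mRNA of Egln1 fell and no change was called in the mRNA of Hif1a. The proteins were not measured. Egln1 encodes PHD2, the main prolyl hydroxylase that marks HIF-1α for destruction. It was at 94.2 and 131 CPM in untreated and 64.6 and 88.5 CPM in treated pLKO, and at 147 and 129 CPM in untreated and 89.5 and 84.6 CPM in treated shDRG2. Treated libraries were below untreated ones of the same line, with a narrow gap in pLKO. The log2 fold changes were -0.55 (SE 0.17, adjusted p = 0.032) in pLKO and -0.67 (SE 0.17, adjusted p = 0.012) in shDRG2 cells. The pLKO call was lost without untreated pLKO replicate 2, treated pLKO replicate 1 or treated shDRG2 replicate 2, and in a fit of the 4 pLKO libraries alone (adjusted p up to 0.27). The shDRG2 call was lost without untreated shDRG2 replicate 1 or either treated shDRG2 library (adjusted p up to 0.080).

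Egln3 encodes PHD3, a hydroxylase that is itself a HIF target. It held 9 and 17 counts in untreated and 4 and 2 counts in treated pLKO libraries, and 22 and 8 counts in untreated and 7 and 3 counts in treated shDRG2 libraries. The treated libraries were lower in each line, and Egln3 was not called (adjusted p = 0.081 and 0.076). Hif1a was among the steadiest of the 34 genes, at 234 to 252 CPM in untreated and 259.9 to 279.5 CPM in treated libraries. Its log2 changes were 0.12 (SE 0.07, adjusted p = 0.24) and 0.14 (SE 0.07, adjusted p = 0.17), and it was not called although the 4 treated libraries lay above the 4 untreated ones.

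The collagen prolyl 4-hydroxylase subunits P4ha1 and P4ha2, HIF targets with the same catalytic role, went in opposite directions. Their promoter stretches are shown with that of Bnip3, the gene with the widest replicate spread in a later comparison, because all 3 hold the core letters of a hypoxia response element. The stretches come from the RefSeq promoter table (GRCm38.p6), run 5′ to 3′ on the gene's strand, cover the 250 bases before the annotated start and leave out any base that GENCODE places in an exon. Capitals mark ACGTG on either strand, which reads CACGT when it lies on the other strand.
P4ha1 promoter, chr10:59323046-59323295, plus strand: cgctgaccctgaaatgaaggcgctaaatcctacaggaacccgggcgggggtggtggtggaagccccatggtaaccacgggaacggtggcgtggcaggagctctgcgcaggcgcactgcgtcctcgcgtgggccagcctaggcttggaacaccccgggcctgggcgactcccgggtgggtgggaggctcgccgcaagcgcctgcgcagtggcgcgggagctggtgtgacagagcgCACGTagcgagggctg
P4ha2 promoter, chr11:54100674-54100923, plus strand: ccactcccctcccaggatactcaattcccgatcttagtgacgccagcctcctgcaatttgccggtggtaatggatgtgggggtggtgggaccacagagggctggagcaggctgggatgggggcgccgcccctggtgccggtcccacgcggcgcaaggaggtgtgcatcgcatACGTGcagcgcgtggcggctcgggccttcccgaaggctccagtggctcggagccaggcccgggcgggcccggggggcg
Bnip3 promoter, chr7:138909520-138909756, minus strand: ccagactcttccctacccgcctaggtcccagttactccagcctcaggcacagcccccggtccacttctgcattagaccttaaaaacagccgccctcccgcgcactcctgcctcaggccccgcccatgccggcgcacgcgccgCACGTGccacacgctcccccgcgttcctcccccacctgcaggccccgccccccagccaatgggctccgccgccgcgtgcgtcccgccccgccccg
The P4ha1 match begins 16 bases and the P4ha2 match 78 bases before the start. The P4ha2 stretch is not in an exon but lies inside the GENCODE gene, which spans 54100095 to 54131665 on chromosome 11 and has a transcript with an earlier start. In Bnip3 the 2 matches overlap on opposite strands as CACGTG, which is also an E-box. ACGTG was found in 16.6% of 32851 promoter windows of 250 bases and in 21 of 48 windows (43.8%) of the 32 genes of this set that had one. Of these 32 genes 18 had it in at least 1 window, and 13 had it outside annotated exons. The windows of a gene can overlap, and those of Aldoa do. The shares over all windows keep exonic bases. The interferon-gamma-activated sequence TTCNNNGAA was in 7.02% of all windows and in 3 of the 48. These are matches of letters and show no binding.

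P4ha1 was at 56.2 and 79.6 CPM in untreated and 83.8 and 102 CPM in treated pLKO, and at 79.8 and 83.2 CPM in untreated and 130.3 and 121 CPM in treated shDRG2. The groups were apart in each line, by a narrow gap in pLKO. P4ha1 rose by a log2 fold change of 0.45 (SE 0.15, adjusted p = 0.043) in pLKO and 0.63 (SE 0.15, adjusted p = 0.0084) in shDRG2 cells. The pLKO call was kept in 7 of 16 alternatives and was lost under upper-quartile scaling, under scaling by library size alone, in a fit of the 4 pLKO libraries and without any 1 of 6 libraries. Those 6 were untreated pLKO replicate 1, treated pLKO replicate 2 and all 4 shDRG2 libraries, and the adjusted p reached 0.29. The shDRG2 call was lost without replicate 1 of either shDRG2 group (adjusted p up to 0.059).

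P4ha2 was at 23.7 and 36.4 CPM in untreated and 14.9 and 22.4 CPM in treated pLKO, and at 29.2 and 39.5 CPM in untreated and 18.3 and 22.7 CPM in treated shDRG2. Treated libraries were again on 1 side of the untreated ones, here below. The log2 fold change was -0.74 (SE 0.24, adjusted p = 0.037) in shDRG2 and -0.68 (SE 0.24, adjusted p = 0.057) in pLKO cells, where it was not called. The shDRG2 call was lost with DESeq2, with scaling by library size alone and without untreated shDRG2 replicate 2 or either treated shDRG2 library (adjusted p up to 0.24).

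Kdm3a encodes a histone H3 lysine 9 demethylase that HIF induces. It was at 110.1 and 125 CPM in untreated and 155 and 159.5 CPM in treated pLKO, and at 128 and 118 CPM in untreated and 182 and 165 CPM in treated shDRG2. All 4 treated libraries were above all 4 untreated ones. Kdm3a rose by 0.42 (SE 0.09, adjusted p = 0.0056) in pLKO and 0.49 (SE 0.09, adjusted p = 0.0018) in shDRG2 cells. Without untreated pLKO replicate 1 the pLKO call was lost (adjusted p = 0.061).

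Ndrg1, a stress-responsive gene linked to differentiation and metastasis, fell with IFN-γ in shDRG2 cells. It was at 45.5 and 54.0 CPM in untreated and 43.3 and 49.2 CPM in treated pLKO, and at 51.2 and 45.8 CPM in untreated and 34.05 and 31.8 CPM in treated shDRG2. The pLKO groups overlapped, and both treated shDRG2 libraries were the lowest of all 8. The log2 fold change was -0.56 (SE 0.11, adjusted p = 0.0028) in shDRG2 cells, kept under all 16 alternatives, and -0.10 (SE 0.11, adjusted p = 0.53) in pLKO cells. Of the annotated exon bases of Ndrg1 8.43% are shared with other genes.

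The other 6 HIF targets were not called with IFN-γ in either line. Vegfa, the vascular growth factor, ranged from 14.9 to 40.9 CPM, Bnip3 from 30.6 to 125 CPM and its relative Bnip3l from 66.2 to 98.5 CPM. Car9, a cell-surface carbonic anhydrase much used as a hypoxia marker, never exceeded 2.21 CPM. Ankrd37 had 13 to 69 counts a library and Adm 0 to 21 counts.

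**Figure D2:**
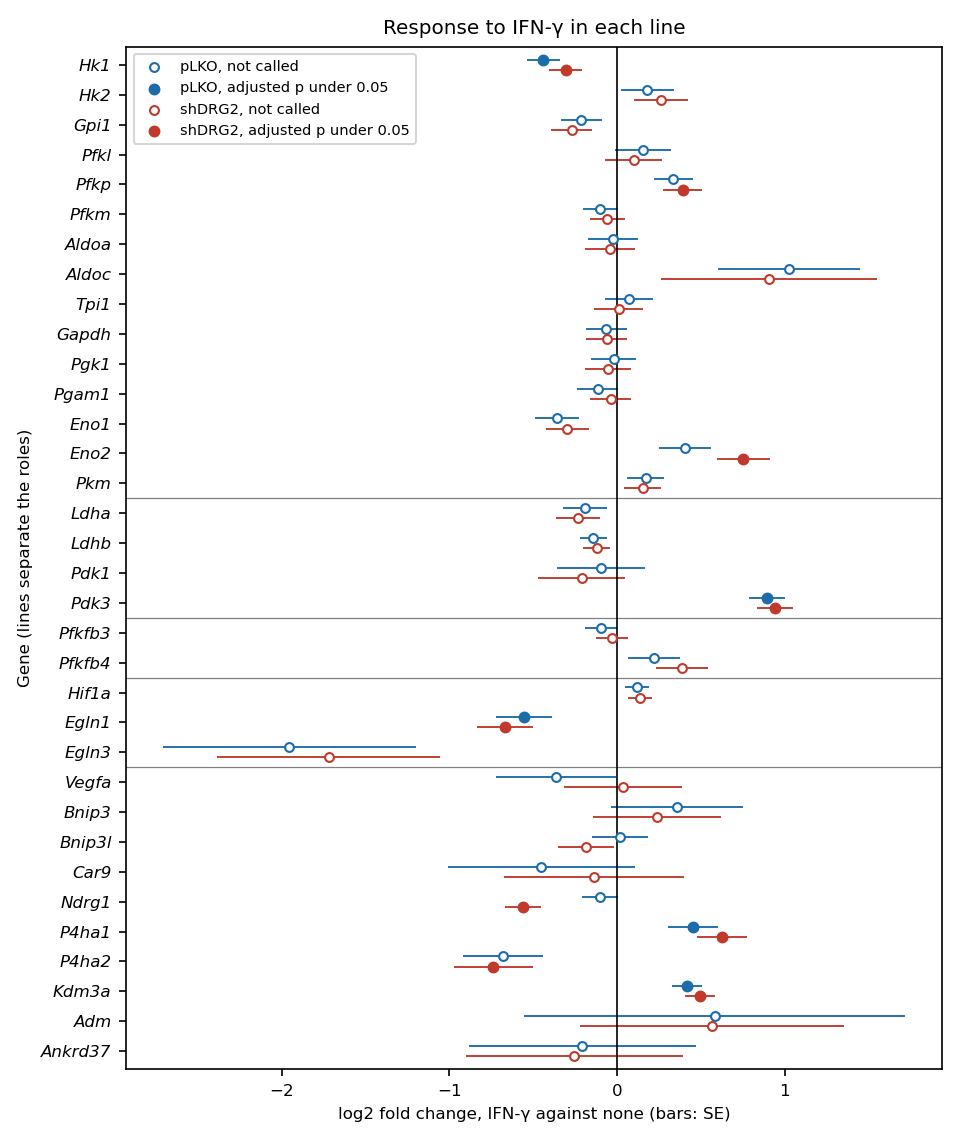
Log2 fold change of each of the 34 genes with IFN-γ (horizontal axis) in pLKO (blue) and shDRG2 cells (red), with bars of 1 SE and filled points for an adjusted p under 0.05. Most points sit near 0, Pdk3 reaches 0.90 and 0.94, and P4ha1 and P4ha2 lie on opposite sides of 0.

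Because several of these genes are isoforms of the same enzyme, their shares per length were also taken, as a description without a test. The length was all annotated exon bases of a gene, 13401 for Pfkp, 6675 for Pfkl and 3340 for Pfkm. Their longest coding transcripts have 4145, 3730 and 2879 bases. The size of a share therefore depends on the length used, and only shifts between libraries are read here. By counts alone Pfkp held 47.8% to 57.8% of the phosphofructokinase subunits. The share of Hk2 in Hk1 plus Hk2 was 47.4% and 59.3% in untreated and 60.5% and 67.6% in treated pLKO, and 59.1% and 61.5% in untreated and 68.6% and 70.0% in treated shDRG2. It was higher with IFN-γ in each line. Pdk3 made up 84.6% and 76.3% of Pdk1 plus Pdk3 in untreated and 90.1% and 87.9% in treated pLKO, and 75.5% and 79.6% in untreated and 88.1% and 88.7% in treated shDRG2. The share of P4ha1 in P4ha1 plus P4ha2 went from 78.2% and 76.8% to 89.5% and 87.4% in pLKO and from 80.6% and 76.2% to 91.5% and 89.0% in shDRG2. Of the phosphofructokinase subunits Pfkp made up 29.0% to 30.3% in untreated and 33.3% to 34.8% in treated pLKO, and 26.6% to 27.4% in untreated and 32.0% to 32.1% in treated shDRG2. In these 4 shares the treated and untreated libraries of a line did not overlap. The same held for the shares of Pfkm, Aldoa and Eno1, which were lower with IFN-γ in each line. The Pfkl share overlapped. Ldha held 60.9% to 70.7% of the lactate dehydrogenase transcripts with overlapping groups, Aldoa 99.79% or more of Aldoa plus Aldoc, and Eno1 at least 99.5% of Eno1 plus Eno2.

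The next comparison was whether the 2 lines answered IFN-γ differently. None of the 34 genes was called for the difference between the responses, for which edgeR called 0.00741% of all genes, that is 1 gene. DESeq2 also called 0 of the 34, and 1 of them had an unadjusted p under 0.05. That gene was Ndrg1, with a difference of -0.46 on the log2 scale (95% interval -0.80 to -0.12, edgeR adjusted p = 1.00). So the call for Ndrg1 in shDRG2 but not in pLKO cells was not shown to be a difference between the lines. For Pdk3 the difference was 0.05 with an interval from -0.29 to 0.38, and for Eno2 it was 0.35 with an interval from -0.15 to 0.84. The 2 responses share no library.

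Between the lines, 0 or 1 of these genes was called, where few genes were called at all. Without IFN-γ 0 of 34 were called by edgeR, against 1.2% of all genes tested. Of the 34, 4 had an unadjusted p under 0.05 (11.8%, against 12.8% of all genes), and DESeq2 called 1, Aldoc, against 2.31% of all genes. With IFN-γ 1 of 34 was called, against 1.67% of all genes, and it was again Aldoc. DESeq2 called 2 of 34 there, Aldoc and Ndrg1, against 2.41% of all genes. The median size of the difference was 0.17 without and 0.18 with IFN-γ, against 0.12 and 0.11 over all genes. The median SE was also larger for the 34 genes, 0.15 against 0.11 over all genes in each treatment.

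Aldoc encodes the brain-type aldolase C, a minor form beside Aldoa in these cells. Its libraries held 17 and 50 counts in untreated and 51 and 77 counts in treated pLKO, but 7 and 5 counts in untreated and 12 and 14 counts in treated shDRG2. In CPM this was 0.519, 1.56, 1.89 and 2.35 in the pLKO libraries and 0.218, 0.194, 0.400 and 0.383 in the shDRG2 libraries, in the same order. Every shDRG2 library was below every pLKO library. Aldoc was 5.39-fold lower in shDRG2 cells with IFN-γ (log2 -2.43, SE 0.48, adjusted p = 0.035) and 4.95-fold lower without (log2 -2.31, SE 0.57, adjusted p = 0.091), where it was not called. The call with IFN-γ was lost when either treated pLKO library or any of the 4 shDRG2 libraries was left out (adjusted p up to 0.24), while the log2 change stayed between -2.57 and -2.26.

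No other gene of the set was called for the line. Ndrg1 with IFN-γ had a log2 difference of -0.49 (SE 0.11, adjusted p = 0.057), with 43.3 and 49.2 CPM in pLKO against 34.05 and 31.8 CPM in shDRG2 cells. Bnip3 was 1.83 times as high in shDRG2 cells without IFN-γ (log2 0.87, SE 0.39, adjusted p = 0.39) and 1.69 times with it (log2 0.76, SE 0.39, adjusted p = 0.50). Its groups overlapped, since untreated pLKO replicate 2 at 60.5 CPM was above untreated shDRG2 replicate 2 at 58.7 CPM. Pfkl had differences of 0.44 (SE 0.17, adjusted p = 0.30) and 0.38 (SE 0.17, adjusted p = 0.41).

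Most of the 34 differences were positive, that is higher in shDRG2 cells, and the medians moved when 1 library was left out. Without IFN-γ 28 of 34 log2 differences were positive, with a median of 0.13 against 0.01 over all genes. With IFN-γ 27 of 34 were positive, with a median of 0.18 against 0.00. Without untreated shDRG2 replicate 1 the first median was -0.01, with 14 of 34 positive. Without treated shDRG2 replicate 1 the second was 0.04, with 22 of 34 positive. Taking the libraries 1 against 1, untreated shDRG2 replicate 1 minus pLKO replicate 1 had a median of 0.32. Of the 34 genes 29 were positive, against 52.0% of all genes. Untreated shDRG2 replicate 2 minus pLKO replicate 2 had a median of -0.07 with 8 of 34 positive, against 49.4%. With IFN-γ the same differences had medians of 0.29 (29 of 34 positive, against 50.1%) and 0.02 (19 of 34 positive, against 50.9%). For shDRG2 replicate 1 minus pLKO replicate 2 the medians were 0.20 without IFN-γ (24 of 34 positive) and 0.24 with it (26 of 34). For shDRG2 replicate 2 minus pLKO replicate 1 they were 0.02 (21 of 34) and 0.05 (22 of 34). Without IFN-γ both shDRG2 libraries lay above both pLKO ones for 5 of 34 genes and below for 4, against 21.1% and 19.8% of all genes. With IFN-γ it was 12 and 2 of 34, against 20.2% and 20.3%.

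**Figure D3:**
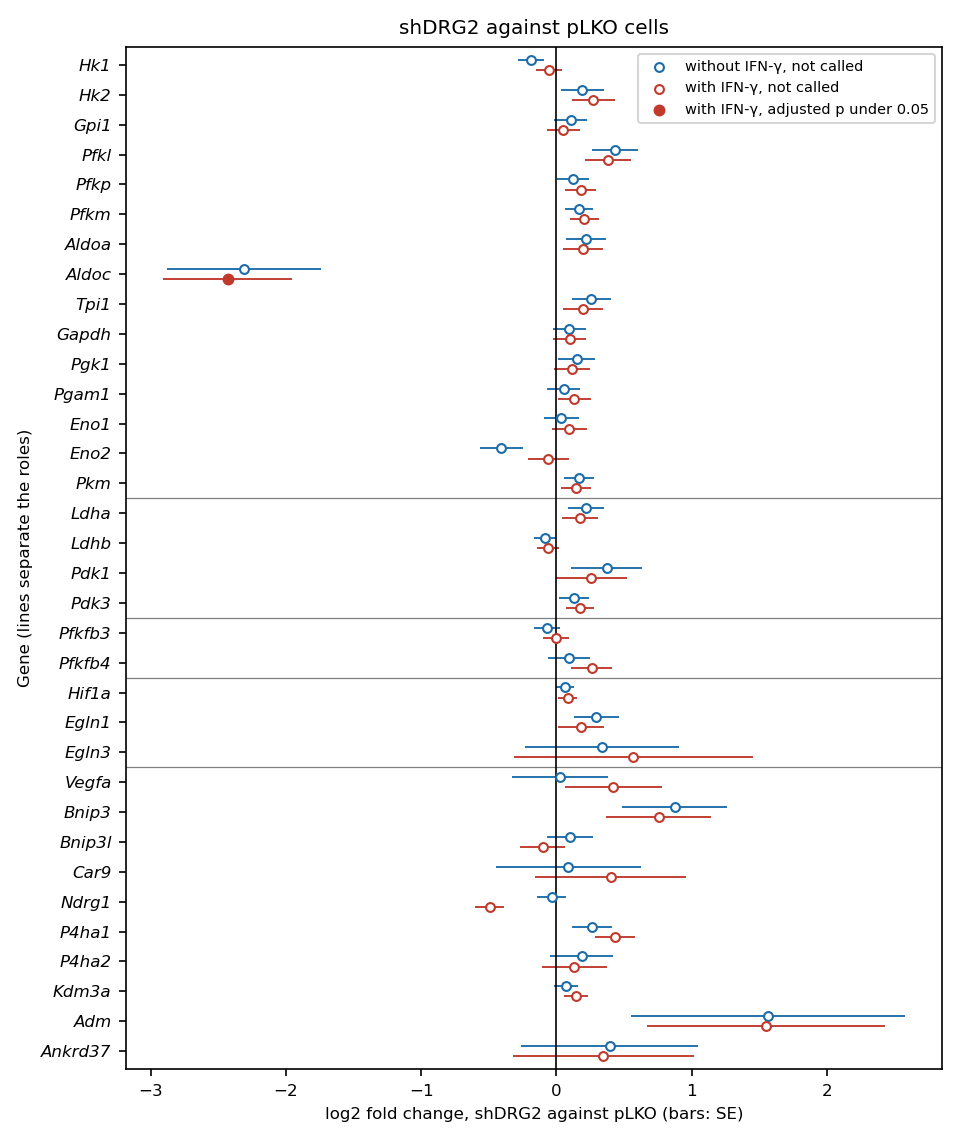
Log2 difference of each of the 34 genes between shDRG2 and pLKO cells (horizontal axis), without IFN-γ (blue) and with it (red), with bars of 1 SE and a filled point for an adjusted p under 0.05. Aldoc, at -2.31 and -2.43, lies farthest to the left and holds the only filled point. Most other points lie slightly to the right of 0.

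The spread between replicates was itself uneven across this set, and most of the widely spread genes were HIF targets. The difference between the 2 libraries of a group was taken as replicate 2 minus replicate 1 on the scale log2(CPM + 0.5). The genes named here were chosen after their values were seen. Bnip3 was at 30.6 and 60.5 CPM in untreated and 42.2 and 74.1 CPM in treated pLKO, but at 108 and 58.7 CPM in untreated and 125 and 72.5 CPM in treated shDRG2. Replicate 2 was thus the higher one in pLKO and the lower one in shDRG2 cells, with and without IFN-γ. The differences were 0.97, 0.81, -0.87 and -0.78, while the median size of the difference over all genes was 0.112 to 0.133 within a group.

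Vegfa was at 17.5 and 40.9 CPM in untreated and 14.9 and 30.2 CPM in treated pLKO, and at 28.9 to 31.9 CPM in the 4 shDRG2 libraries. Its replicates were far apart in pLKO and close together in shDRG2 cells. Pdk1 measured 27.5 and 48.5 CPM in untreated pLKO, 29.8 and 41.2 CPM with IFN-γ, then 58.1 and 40.2 CPM in untreated shDRG2 and 48.0 and 37.2 CPM with IFN-γ, the same crossed order as Bnip3. Car9 was steady in pLKO (0.975 to 1.44 CPM) and differed between replicates of shDRG2, at 2.21 and 0.659 CPM untreated and 1.97 and 0.739 CPM treated. Hif1a did not take part, with differences of at most 0.07 in size in each group.

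As a group the glycolytic enzymes tended to be higher in replicate 1 of shDRG2 cells, with no such tendency in pLKO cells. Their median difference was 0.01 and -0.02 in untreated and treated pLKO, and -0.34 and -0.22 in untreated and treated shDRG2. Aldoa, for example, was at 1251 to 1317 CPM in all 4 pLKO libraries, at 1783 and 1251 CPM in untreated shDRG2 and at 1617 and 1329.8 CPM in treated shDRG2. Tpi1, at 1449 and 1046 CPM untreated, and Ldha, at 1317 and 979 CPM untreated, were likewise higher in replicate 1 of shDRG2. Some single enzymes differed between the replicates of untreated and treated pLKO, namely Hk2 (0.56 and 0.29), Pfkl (0.39 and 0.19) and Aldoc (1.02 and 0.25). In both treatments of shDRG2 replicate 1 was the higher library for 27 of 34 genes (79.4%), against 33.7% of all genes tested. In both treatments of pLKO replicate 2 was the higher one for 18 of 34 (52.9%), against 34.5%. Both held for 13 of 34 genes (38.2%), against 6.78% of all genes. These shares are descriptions, since genes that vary together are not independent, and the labels name no batch to set beside them.

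**Figure D4:**
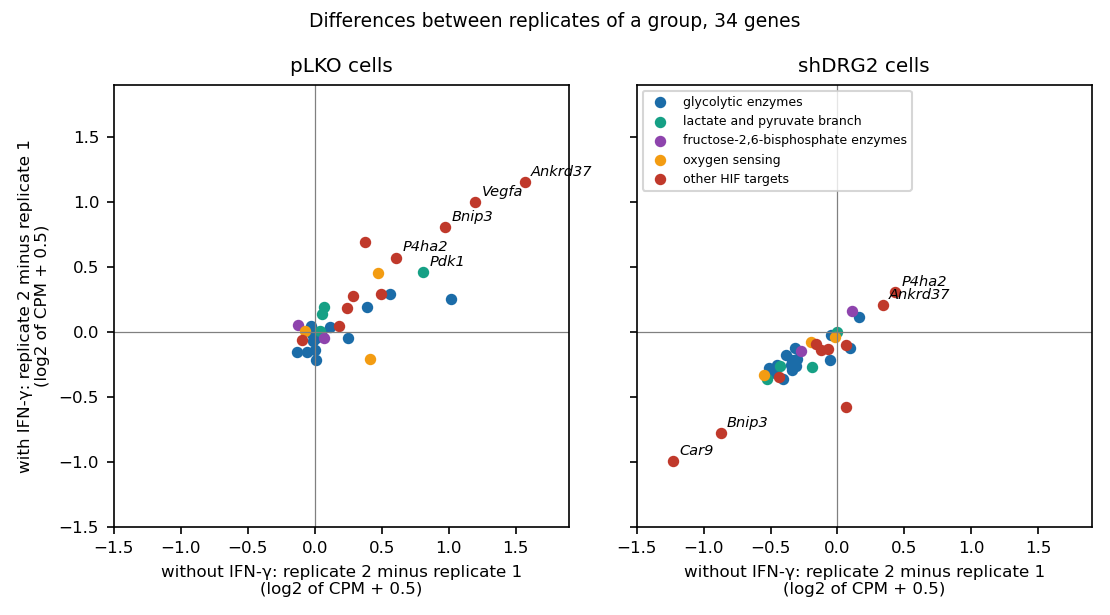
Replicate 2 minus replicate 1 on the scale log2(CPM + 0.5) without IFN-γ (horizontal axis) and with it (vertical axis), for the 34 genes in pLKO (left) and shDRG2 cells (right), coloured by role. Ankrd37, Vegfa and Bnip3 lie far up to the right in pLKO cells, and Bnip3 and Car9 far down to the left in shDRG2 cells.

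**Figure D5:**
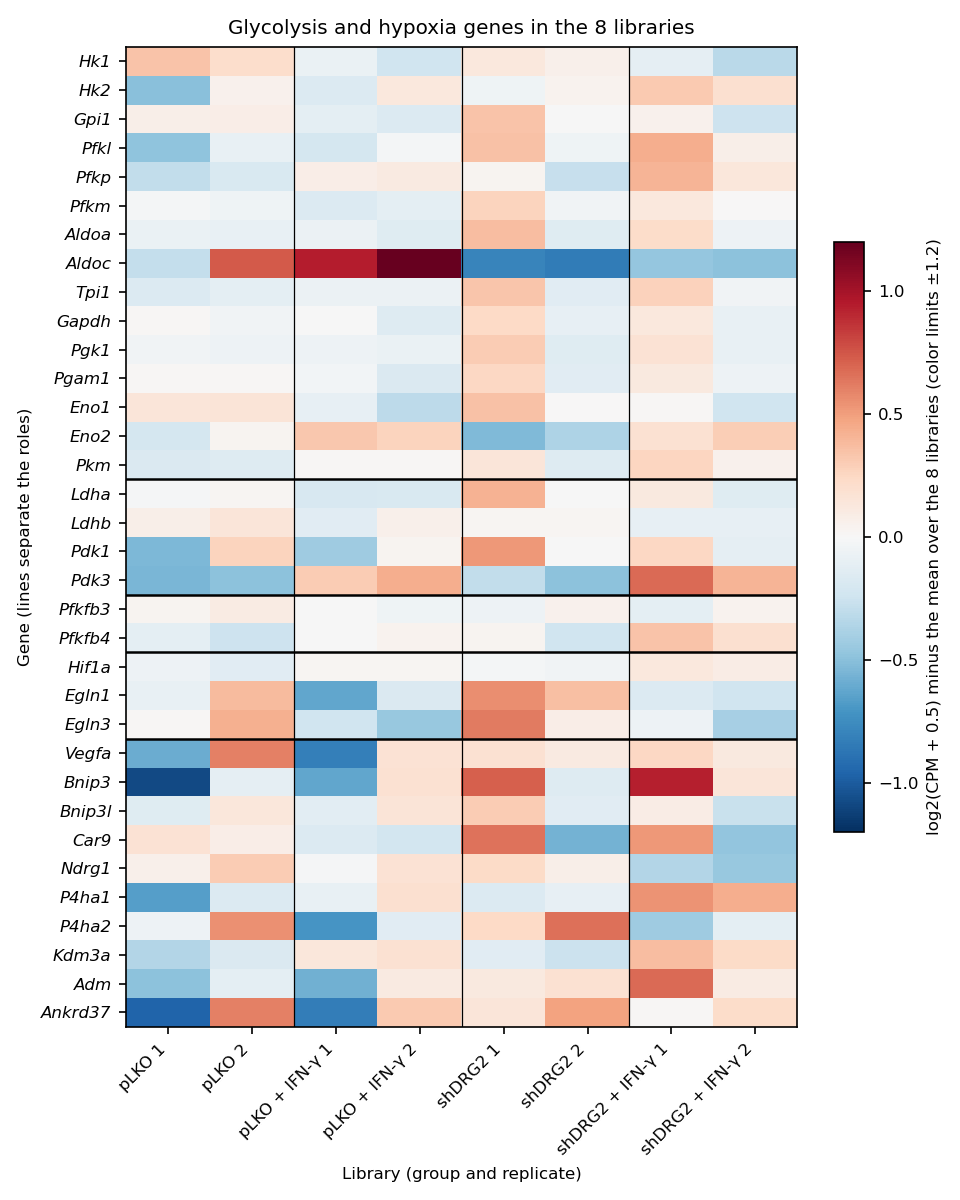
Level of each of the 34 genes (rows, by role) in the 8 libraries (columns), as log2(CPM + 0.5) minus that gene's mean over the libraries, with red above and blue below the mean. The column of untreated shDRG2 replicate 1 is red for most glycolytic enzymes. Bnip3 runs from blue in pLKO replicate 1 to red in shDRG2 replicate 1 under both treatments.

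Beside the 34 genes, 94 further genes of glucose and pyruvate handling, HIF regulation and HIF response were listed, of which 68 were tested. With IFN-γ 6 rose and 9 fell in pLKO cells, and 8 rose and 8 fell in shDRG2 cells, 22.1% and 23.5% of those tested, against 28.1% and 31.4% of all genes. The largest rise was that of Nampt, the rate-limiting enzyme of NAD salvage, with log2 changes of 2.14 (SE 0.08) in pLKO and 2.25 (SE 0.08) in shDRG2 cells. It went from 112 and 114 CPM to 495 and 498 CPM in pLKO and from 118 and 115 CPM to 577 and 530.3 CPM in shDRG2. Fosl2, an AP-1 factor, rose by 1.12 and 1.46, Ero1l, an endoplasmic reticulum oxidase, by 0.78 and 0.93, and Plin2, a lipid droplet protein, by 0.90 and 0.72. G6pdx, which opens the pentose phosphate pathway, rose by 0.67 and 0.81, and Cul2, the scaffold of the VHL ubiquitin ligase, by 0.70 and 0.79. The collagen lysyl hydroxylase Plod2 fell by 0.66 and 0.80, Bhlhe40 by 0.59 and 0.63, Bhlhe41 by 0.35 and 0.59, and Dusp1 by 0.53 and 0.62. The glucose transporter Slc2a1, a textbook HIF target, was at 48.8 to 71.7 CPM and was not called, with changes of -0.09 (SE 0.12) and -0.13 (SE 0.12).

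For the line, 1 of the 68 further genes (1.47%) was called in each treatment, against 1.2% and 1.67% of all genes. It was Pdhb, a pyruvate dehydrogenase subunit, named after its values were seen, at 121 to 129 CPM in pLKO and 96.1 to 101 CPM in shDRG2 libraries (log2 -0.34, adjusted p = 0.044, and -0.35, adjusted p = 0.033). Pdhb lies on chromosome 14, where the median log2 difference of 436 genes was -0.28 without and -0.27 with IFN-γ. Of those genes 29 (6.65%) and 45 (10.3%) were called, 27 and 42 of them lower in shDRG2, against the same 1.2% and 1.67% of all genes. Bnip3l lies on the same chromosome and had differences of 0.10 (SE 0.17) and -0.10 (SE 0.17). No member of the further lists was called for the difference between the responses.

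Some of the 34 counts could be shared with near-identical genes. For Gapdh 88.0% of the transcript has a stretch at 95% identity or more in 81 other genes, and the 75 of those in the table held 4.47% to 6.38% of the combined counts. Pgk1 shared sequence with genes that held 3.43% to 4.07% of the combined counts, and Eno1 with genes that held 1.96% to 2.24%. Gpi1 shared a stretch with genes, mainly Wdr33, that held 13.4% to 21.1%, and Car9 with Gm12454, which held 2.74% to 29.2%. Pfkp overlaps Pitrm1 on the opposite strand over 5.58% of its exon bases and 18.05% of its transcript, and Pitrm1 held 33.3% to 49.4% of the combined counts of both. The overlap bears on the Pfkp call, since strandedness of the libraries is not stated and reads there cannot be told apart. Bnip3 shares 22.3% of its exon bases with Gm45507 and Ankrd37 26.4% with other genes, Lrp2bp among them.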

How the data were processed

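The authors' deposited table gives estimated counts for each gene, made, per the submitters' processing notes, with STAR, Salmon 1.5.2 and mm10. Their annotation release is not given in the sources used here. Whole numbers, within 0.0015, made up 86.4% of the values above 0. Counts were rounded, and 27 of 45583 rows whose names had become dates were left out. edgeR 4.0.16 in R 4.3.3 kept 13500 genes (filterByExpr), scaled by TMM (factors 0.973 to 1.04) and fitted a quasi-likelihood model with 1 term per group to all 8 libraries, with 4 residual and 6.10 prior degrees of freedom. The 5 comparisons used its two-sided F test with Benjamini-Hochberg adjustment over all genes. Standard errors were taken from the fold change and F. The test was checked on simulated data. Exons and positions came from GENCODE M21, near copies from blastn 2.17.0. Alternatives included DESeq2 1.42.0. Values in every library follow a rule: members called for the line or the difference, and up to 12 called with IFN-γ. The further lists give up to 10 called genes averaging 5 CPM or more. Other genes shown by library (Eno1, Egln3, Bnip3, Pdk1, Vegfa, Aldoa, Car9, Tpi1, Ldha, Hif1a) were chosen after their values were seen. The members and lists were chosen with earlier results of these data known.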

Additional observations from a re-analysis of the deposited data

How the results depend on the processing

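No fold change of the 34 genes that was called turned its direction under any alternative run, and scaling by DESeq2 size factors left every count of calls within 1.5 times. Upper-quartile scaling gave 1855 higher and 2129 lower genes with IFN-γ in pLKO cells, against 2082 and 1714 with TMM. DESeq2 called 312 of all genes and 1 of the 34 for the line without IFN-γ, 2 of the 34 with it, and 9 of all genes for the difference between the responses. Without the filter on low counts edgeR's prior became infinite, so that each gene's own replicate spread no longer counted (for Bnip3 the quasi-likelihood dispersion went from 12.8 to 0.804). That fit called 12 (35.3%) and 14 (41.2%) of the 34 for IFN-γ in pLKO and shDRG2 cells, against 4287 and 4670 of all 21481 genes. For the line without and with IFN-γ it called 5 (14.7%) and 6 (17.6%) of the 34. Of all genes it called 678 (3.16%) and 653 (3.04%) for the line, and 58 for the difference. A fit of the 4 libraries compared called 124 of all genes for the line with IFN-γ, and the cause was not tested.

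The replicate numbers are shared across groups, and the labels do not say that they pair the samples. Deviations of same-numbered libraries correlated at 0.132 to 0.414 over the 6 pairs of groups. With the replicate block the calls were 10 of the 34 (29.4%, against 38.3% of all genes) for IFN-γ in pLKO cells, with Aldoc, Eno1, Eno2, P4ha2 and Pfkp added. In shDRG2 cells they were 12 of the 34 (35.3%, against 41.7%). For the line without and with IFN-γ they were 1 (2.94%) and 3 (8.82%) of the 34. Of all genes 673 (4.99%) and 675 (5.0%) were called for the line, and 2 for the difference. A replicate block within each line, chosen after seeing the data, called 17 (50.0%) and 18 (52.9%) of the 34 and 5806 of all genes (43.0%) in pLKO cells for IFN-γ (45.8% in shDRG2), and 12 of all genes for the difference.

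Leaving out each library in turn gave 2482 to 3749 of all genes and 3 to 6 of the 34 for IFN-γ in pLKO cells, and 2720 to 4297 and 5 to 9 in shDRG2 cells. The lowest counts came without untreated pLKO replicate 1 and without treated shDRG2 replicate 1. For the line the ranges were 27 to 167 and 0 to 1 without IFN-γ and 44 to 202 and 0 to 1 with it, lowest without replicate 1 of untreated and of treated shDRG2. Counts over all genes also moved by over 1.5 times for IFN-γ in pLKO cells without treated pLKO replicate 2 (2495), and for the line without IFN-γ without either untreated pLKO library (37 and 61), untreated shDRG2 replicate 2 (61) or treated shDRG2 replicate 2 (103). For the line with IFN-γ they moved without either treated pLKO library (86 and 123) or treated shDRG2 replicate 2 (58). Aldoc was called for the line without IFN-γ when untreated pLKO replicate 1 was left out. The difference gave 1 to 2 of all genes (2 without untreated pLKO replicate 1) and 0 of the 34. Genes with low counts, Adm, Egln3, Aldoc, Ankrd37 and Car9, had the widest errors.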
